A study of Mus musculus with 12 samples.

Results

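Transcripts of 10 genes for acute phase and metal-binding plasma proteins were followed in cultured primary mouse hepatocytes, the main parenchymal cell of the liver. The genes were chosen by name from 55487 gene identifiers: Saa1, Saa2, Saa3 and Saa4 (serum amyloid A), Lcn2 (lipocalin 2), Hp (haptoglobin), Hpx (hemopexin), Cp (ceruloplasmin), Orm1 (orosomucoid 1) and Crp (C-reactive protein). All 10 passed the filter on low counts, and every library held reads of each. The 12 libraries fell into 4 groups of 3: untreated control cells, cells treated with FAC, and cells pretreated before FAC with either of 2 scavengers of reactive oxygen species (ROS), added on the second culture day. The scavenger was liproxstatin-1 (Lip-1), named in the labels as acting on lipid ROS, or Mito-TEMPO (MT), named as acting on mitochondrial ROS. The abbreviation FAC is not spelled out in the labels, and no group received a scavenger without FAC. Strain, sex and age of the animals were not given in the sources used here. Nothing in the labels says whether replicates came from separate animals or cultures, so p-values measure the spread between these libraries, which may be technical. The title of the series concerns mitochondrial ROS and the sensitivity of hepatocytes to ferroptosis, an iron-dependent form of cell death driven by lipid peroxidation.

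The acute phase response is the change in the plasma proteins secreted by the liver during inflammation, driven mainly by interleukin 6 acting through STAT3 and by interleukin 1 and tumour necrosis factor acting through NF-kB, together with C/EBP factors. Its products include lipid carriers of high-density lipoprotein (serum amyloid A) and several proteins that keep metals and haem out of the reach of microbes: haptoglobin binds free haemoglobin, hemopexin binds haem, ceruloplasmin carries copper and oxidises ferrous iron, and lipocalin 2 binds bacterial iron carriers. In mice Saa1, Saa2 and Hp are strongly inducible, Crp responds weakly, and Saa4 is known as the constitutive member of its family.

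The Saa genes lie next to each other on chromosome 7 of the mouse build GRCm38, in the order Saa3 (46711998 to 46715700), Saa4 (46727998 to 46732603), the pseudogene Saa-ps, Saa1 (46740497 to 46742980) and Saa2 (46751790 to 46754313). Saa2 is on the plus strand and the other Saa genes are on the minus strand, so Saa1 and Saa2 point away from each other. The windows directly before these 4 starts are shown because the neighbours behaved differently below. Each window holds 206 bases, from 250 to 45 bases before the RefSeq transcription start (GRCm38.p6), written 5′ to 3′ on the gene's strand. Capitals mark matches to the letters TTGCNNAA (C/EBP) or GGNNTTTCC (NF-kB) on either strand. The windows are chr7:46743025-46743230 for Saa1, chr7:46751583-46751788 for Saa2, chr7:46715721-46715926 for Saa3 and chr7:46732648-46732853 for Saa4.
Saa1: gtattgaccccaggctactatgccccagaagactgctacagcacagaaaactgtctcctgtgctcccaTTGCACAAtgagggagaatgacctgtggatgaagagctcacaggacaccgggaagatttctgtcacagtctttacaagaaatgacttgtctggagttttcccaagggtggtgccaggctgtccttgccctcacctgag
Saa2: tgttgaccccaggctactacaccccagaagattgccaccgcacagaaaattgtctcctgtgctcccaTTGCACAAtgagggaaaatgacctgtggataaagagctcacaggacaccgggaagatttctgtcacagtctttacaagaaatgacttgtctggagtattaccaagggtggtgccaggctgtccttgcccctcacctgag
Saa3: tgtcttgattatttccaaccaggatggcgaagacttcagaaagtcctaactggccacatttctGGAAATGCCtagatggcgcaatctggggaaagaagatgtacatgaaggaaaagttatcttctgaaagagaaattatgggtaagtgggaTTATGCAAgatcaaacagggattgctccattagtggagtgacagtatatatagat
Saa4: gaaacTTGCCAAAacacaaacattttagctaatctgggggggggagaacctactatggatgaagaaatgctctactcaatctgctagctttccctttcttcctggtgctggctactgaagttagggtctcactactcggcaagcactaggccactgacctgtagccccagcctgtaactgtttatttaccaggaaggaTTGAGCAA
Over the 250 bases before the start, Saa1 and Saa2 were 94.8% identical, whereas Saa1 shared 48.5% with Saa3 and 46.3% with Saa4 in the same kind of alignment. The C/EBP match stood at the same letters in Saa1 and Saa2, 182 and 183 bases before the start. Saa3 held a C/EBP match on the opposite strand from 99 bases before the start and an NF-kB match from 187 bases before it. Saa4 held C/EBP matches from 245 and from 52 bases before its start.

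The same search covered 32851 RefSeq promoters of 27025 genes. A gene was counted when any of its promoters held the letters, and Cp has more than one. TTGCNNAA was found in 10.8% of genes (9.56% of promoters), and in 7 of the 8 genes described here that had a promoter entry, all except Crp. GGNNTTTCC was found in 5.62% of genes (4.93% of promoters) and in 2 of the 8, Saa3 and Cp. TTCNNNGAA (STAT3) was found in 8.13% of genes (7.02% of promoters) and in 0 of the 8, and GTTAATNAT (HNF1) in 0.866% of genes (0.737% of promoters) and in 1 of the 8, Cp. Hp and Orm1 had no entry. These matches describe letters in a window and are neither measured binding sites nor evidence on any factor.

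The coding sequences of Saa1 and Saa2 differ at 18 of 369 aligned bases (95.1% identity). Coding bases 61 to 150 hold 11 of these differences, and the stretch is shown, from GENCODE M21 transcripts on chromosome 7, to show how close these genes are. Capitals mark the differing bases.
Saa1: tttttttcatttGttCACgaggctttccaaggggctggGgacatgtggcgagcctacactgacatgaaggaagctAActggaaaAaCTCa
Saa2: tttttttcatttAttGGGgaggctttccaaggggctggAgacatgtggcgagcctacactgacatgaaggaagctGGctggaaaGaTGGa
No window of 100 bases was identical between the Saa1 and Saa2 transcripts, and 0 of the 510 windows of Saa1 and 0 of the 507 of Saa2 were found in any other annotated gene. Of the 676 windows of Orm1, 47 (6.95%) were shared with Orm2. Multimapping reads count for no gene in this file layout, so the level of Orm1 may be too low. Shorter matches were not examined, and how the authors' counting split reads between Saa1 and Saa2 was not tested.

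Gene-assigned counts lay between 22991598 and 31683376 per library, apart from 52529278 in FAC replicate 2, whose file is marked as combined without saying what was combined. All 10 hepatocyte markers were detected in every group, with summed normalized counts (CPM, counts scaled to library size) of 19220.0 to 19740.0 in control, 18680.0 to 19530.0 with FAC, 15010.0 to 15890.0 with Lip-1+FAC and 15260.0 to 16680.0 with MT+FAC. Of these, 2 rose and 2 fell with FAC, and 1 rose and 7 fell with each pretreatment against FAC. Of all genes tested, 36.6% were called with FAC, 39.9% with Lip-1 and 40.9% with MT. These shares also stand behind the counts for other cell types that follow. Against control, 1 rose and 9 fell with Lip-1+FAC and 1 rose and 7 fell with MT+FAC, beside 30.2% and 19.8% of all genes tested. Markers of biliary cells summed to 58.6 to 69.0 CPM in control, 98.4 to 123.3 with FAC, 109.6 to 124.9 with Lip-1+FAC and 104 to 144.7 with MT+FAC. Of 5 tested, 4 rose with FAC and fell with both pretreatments, among them Sox9, at 15.3 to 19.7 CPM in control, 49.3 to 57.5 with FAC and 10.4 to 16.6 in pretreated libraries. The other one, Spp1, made up most of the pretreated sums, at 34.8 to 49.0 CPM in control and FAC libraries and 86.9 to 124.6 in pretreated ones. Stellate cell and fibroblast markers summed to 21.6 to 29.2 CPM in control, 30.9 to 39.5 with FAC, 15.5 to 18.7 with Lip-1+FAC and 17.5 to 22.5 with MT+FAC. The changes in this sum came mainly from Reln, at 5.84 to 8.93 CPM in control, 15.9 to 16.2 with FAC and 3.46 to 6.17 in pretreated libraries, and from Acta2. Of 7 tested, Reln rose and Dcn fell with FAC (the latter lost with the length and GC offsets described below, -0.46, edgeR adjusted p = 0.098), Reln and Acta2 fell with both pretreatments, and the list medians had the opposite sign to the sum (-0.44 with FAC, 0.17 with Lip-1 and 0.53 with MT). Endothelial markers summed to 38.2 to 39.8, 37.2 to 38.0, 28.3 to 29.9 and 29.1 to 32.0 CPM in the same order of groups. Most of that sum was Stab2, at 25.7 to 29.3 CPM in control and FAC libraries and 15.7 to 22.2 in pretreated ones, and it was the one of 7 tested that was called with either pretreatment (list medians -0.23 and 0.20). The part of these shifts in the results below was not tested. In bulk samples, fewer cells of a type and less RNA per cell cannot be told apart.

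Expressed per kilobase of transcript, so that genes can be compared, Hpx was the most abundant of the 10 in control cells, at 7939 ± 241 CPM per kb (SD, n = 3). Lcn2 followed with 3185 ± 272 CPM per kb and Hp with 3056 ± 227. Orm1, Saa1, Cp and Saa2 lay between 761 and 1066 CPM per kb, and Crp at 242 ± 13.7. Saa3 reached 61.0 and Saa4 14.3 CPM per kb. Together the 10 genes took 2.47% of gene-assigned counts in control cells (2.43% to 2.53% per library) and 2.02% with FAC (1.94% to 2.10%). With Lip-1+FAC the share was 2.76% (2.67% to 2.93%) and with MT+FAC 2.74% (2.65% to 2.84%), so that the FAC libraries were lowest, without overlap with any other group. Hpx alone took 0.956% to 1.55% of the gene-assigned counts of a library.

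**Figure D1:**
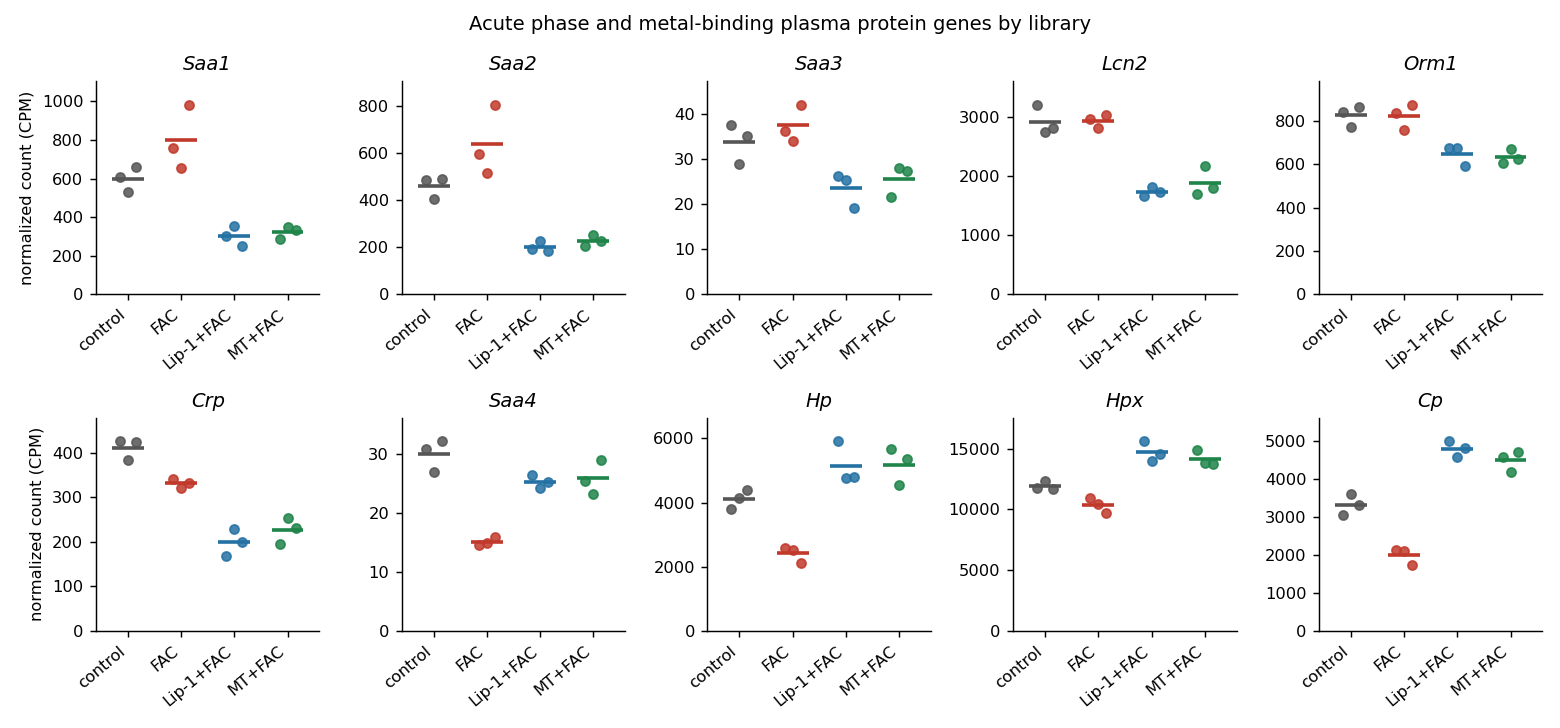
Normalized counts (CPM, linear axes from 0) of the 10 genes in each of the 12 libraries, with points for libraries and horizontal lines for group means. Saa1, Saa2, Saa3, Lcn2, Orm1 and Crp were lowest in the pretreated groups, whereas Saa4, Hp, Hpx and Cp were lowest in the FAC group.

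With FAC alone, transcripts of Hp, Cp and the constitutive Saa4 fell and kept their calls in every alternative run. Those of Hpx and Crp also fell and that of Saa2 rose, calls that were lost in 5, 7 and 8 alternatives. Of the 10 genes, 1 rose and 5 fell at an adjusted p under 0.05 (edgeR quasi-likelihood test, adjusted over 13535 genes), beside 36.6% of all genes tested (17.5% higher and 19.1% lower). The median log2 fold change of the 10 was -0.10, against -0.01 over all genes tested. With the length and GC offsets described below, the median of the 10 was 0.00. Saa1, Saa3, Lcn2 and Orm1 did not pass the test. Without FAC replicate 3 the number called fell from 6 to 3, leaving Saa4, Hp and Cp.

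Both pretreated groups differed from FAC in all 10 genes and in the same directions, 6 lower and 4 higher. In Lip-1+FAC against FAC, 39.9% of all genes tested were called (20.7% higher and 19.2% lower), and in MT+FAC against FAC 40.9% (21.2% and 19.7%). The median of the 10 was -0.50 with Lip-1 and -0.46 with MT, near 0.00 for all genes in both. With the length and GC offsets described below, the medians of the 10 were -0.33 and -0.21. The groups did not overlap for any of the 10 genes in either comparison, beside 50.8% and 52.9% of all genes. These comparisons use the same FAC libraries, and the comparison of FAC with control uses them too, so agreement or opposition between them carries no independent weight.

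**Figure D2:**
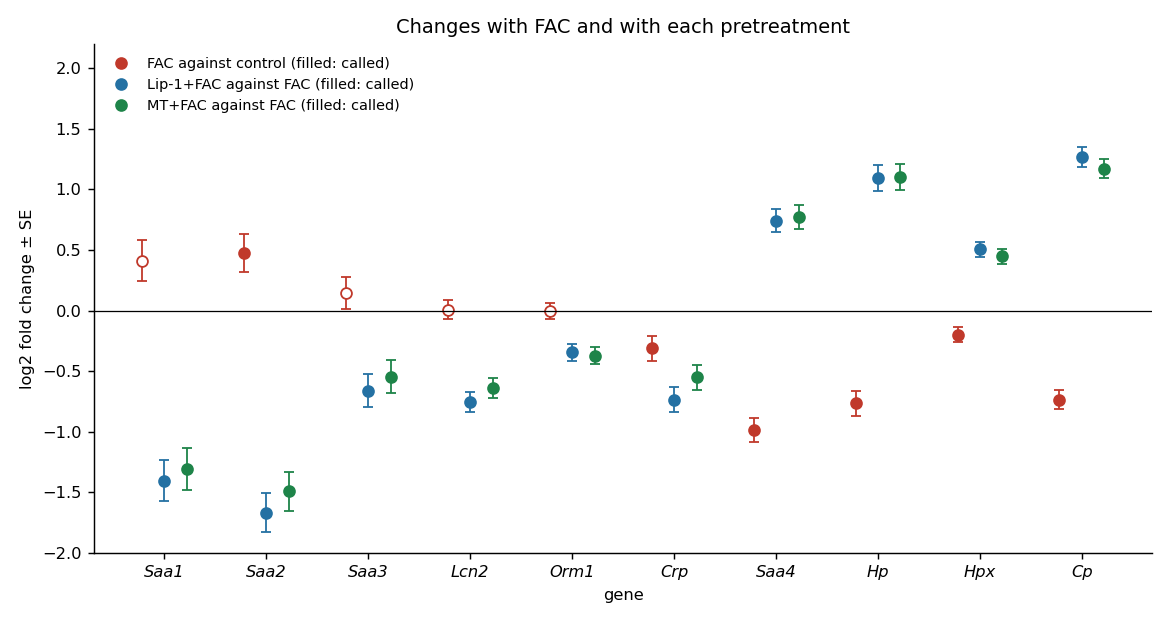
Log2 fold changes with their standard errors for FAC against control, Lip-1+FAC against FAC and MT+FAC against FAC, with filled points for genes called at an adjusted p under 0.05 and open points for the rest. With either pretreatment 6 genes lay below 0 and 4 above it, between -1.67 for Saa2 and 1.27 for Cp.

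Serum amyloid A1 and A2, apolipoproteins that replace other proteins on high-density lipoprotein in inflammation, fell most among the 10 in pretreated cells against FAC. Saa1 stood at 611, 528 and 661 CPM in the control libraries and at 759, 653 and 983 CPM with FAC. It stood at 300.3, 352 and 253 CPM with Lip-1+FAC and at 285, 348 and 334 CPM with MT+FAC. Every pretreated library was below every FAC and control library, while control and FAC overlapped. The log2 fold change of Saa1 was -1.40 ± 0.17 (SE) for Lip-1+FAC against FAC (edgeR adjusted p = 0.00012) and -1.31 ± 0.17 for MT+FAC against FAC (adjusted p = 0.000207). FAC against control gave 0.41 ± 0.167 (adjusted p = 0.0827), which did not pass, although DESeq2 (0.43, adjusted p = 0.00679), the fit of only the compared groups (0.43, edgeR adjusted p = 0.0496) and the fit without FAC replicate 2 (0.54, adjusted p = 0.0309) called it. Without FAC replicate 3 it was 0.23 (adjusted p = 0.247).

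Saa2 followed the same pattern as its near copy. Its levels were 486, 405 and 492 CPM in control, 597, 518 and 807 with FAC, 193, 227 and 184 with Lip-1+FAC, and 206, 252 and 225 with MT+FAC. The FAC libraries were the highest and did not overlap with control, and the pretreated libraries were the lowest. The log2 fold change was -1.67 ± 0.163 for Lip-1+FAC against FAC (edgeR adjusted p = 2.2e-05) and -1.49 ± 0.162 for MT+FAC (adjusted p = 5.48e-05). The rise with FAC, 0.47 ± 0.158 (adjusted p = 0.0401), was lost when the counts of Saa1 and Saa2 were summed (0.44, adjusted p = 0.0583) and without FAC replicate 3 (0.27, adjusted p = 0.0802). It was also lost when any of the other control or FAC libraries except FAC replicate 2 was left out, at adjusted p between 0.0509 and 0.133, and with the low-count filter removed (adjusted p = 0.0978). FAC replicate 3 held the highest levels of Saa1, Saa2, Saa3, Saa4, Lcn2 and Orm1 and the lowest of Hp, Hpx and Cp among the FAC libraries. Reads of Saa1 per read of Saa2 lay between 1.22 and 1.34 in control and FAC libraries and between 1.37 and 1.55 in pretreated ones.

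Saa3, which in mice is made by macrophages and other cells besides hepatocytes, was far less abundant. Its control libraries held 37.5, 28.9 and 35.2 CPM and its FAC libraries 36.2, 34.1 and 42.03. With Lip-1+FAC it held 26.3, 25.3 and 19.1 CPM, and with MT+FAC 21.7, 27.9 and 27.3. Pretreated libraries were below all control and FAC libraries, which overlapped with each other. Saa3 fell by 0.66 on the log2 scale with Lip-1 (edgeR adjusted p = 0.00109) and by 0.55 with MT (adjusted p = 0.00431), both against FAC, and FAC against control gave 0.14 (adjusted p = 0.438). With the length and GC offsets described below the values against FAC were -0.43 and -0.23 (adjusted p = 0.0498 for MT), and with the length offset alone the MT call was lost (-0.19, adjusted p = 0.128). The 12 markers of macrophages and Kupffer cells summed to 229.9 to 262.2 CPM in control, 294.4 to 327.5 with FAC, 123.6 to 152.3 with Lip-1+FAC and 148.6 to 181.6 with MT+FAC. That sum was mostly Cd68, at 214 to 245 CPM in control, 279.5 to 311 with FAC and 106 to 164 in pretreated libraries. The Kupffer cell markers Adgre1 and Clec4f did not exceed 1.81 CPM in any library and Timd4 was under 0.1 CPM on average, and of 10 tested markers 1 rose and 1 fell with Lip-1 and 2 rose and 1 fell with MT, beside 39.9% and 40.9% called of all genes tested. Their part in the Saa3 result was not tested.

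Saa4 moved against its neighbours. Its libraries held 30.8, 26.9 and 32.0 CPM in control and 14.5, 14.9 and 15.9 with FAC. They held 26.3, 24.2 and 25.2 CPM with Lip-1+FAC, and 25.3, 23.2 and 28.8 with MT+FAC. The FAC libraries were lowest without overlap, and MT+FAC overlapped with control. Saa4 fell by 0.99 on the log2 scale with FAC (SE 0.0982, edgeR adjusted p = 5.6e-07), and rose against FAC by 0.74 with Lip-1 (adjusted p = 1.07e-05) and 0.77 with MT (adjusted p = 8.63e-06). The difference from control was -0.25 with Lip-1 (adjusted p = 0.0626) and -0.22 with MT (adjusted p = 0.124), neither called, although upper-quartile scaling (adjusted p = 0.0465), a filter at a mean of 5 CPM (0.0423), a replicate block (0.048) and leaving out control replicate 2 (0.0309) called the former. Reads of Saa1 per read of Saa4 were 20 ± 0.524 in control, 52.7 ± 9.09 with FAC, 12 ± 2.32 with Lip-1+FAC and 12.6 ± 2.06 with MT+FAC (SD, n = 3). FAC had the highest values, 43.8 to 62.0, and pretreated libraries, at 10 to 15, lay below the control range of 19.6 to 20.6.

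Of 4 tested genes flanking the cluster, 1 rose and 1 fell with FAC, 1 rose and 1 fell with Lip-1 against FAC, and 1 rose and 2 fell with MT, beside 36.6%, 39.9% and 40.9% called of all genes tested. Saal1, directly beside Saa3 and not on that list, gave -0.10, -0.10 and -0.07 in the same order, none called. Hps5, next to Saa2 and needed for the biogenesis of lysosome-related organelles, gave log2 fold changes of 0.00 for FAC against control, 0.14 for Lip-1+FAC against FAC and 0.16 for MT+FAC against FAC, none called. Gtf2h1, a subunit of the transcription factor TFIIH, rose by 0.34 with FAC (edgeR adjusted p = 0.000105), gave -0.03 with Lip-1 (-0.17 and called with the length and GC offsets described below) and fell by 0.25 with MT (adjusted p = 0.00144). Ldha, which encodes lactate dehydrogenase A, held 6957 to 7888 CPM with FAC, 3645 to 4217 with Lip-1+FAC and 4336 to 5052 with MT+FAC. It gave 0.02 with FAC and fell by 0.90 with Lip-1 (edgeR adjusted p = 8.1e-08) and 0.67 with MT (adjusted p = 2.53e-06). Sergef gave -0.35 with FAC (adjusted p = 0.0324), a call lost with the offsets (-0.27, adjusted p = 0.0988), and rose by 0.57 with Lip-1 and 0.64 with MT.

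**Figure D3:**
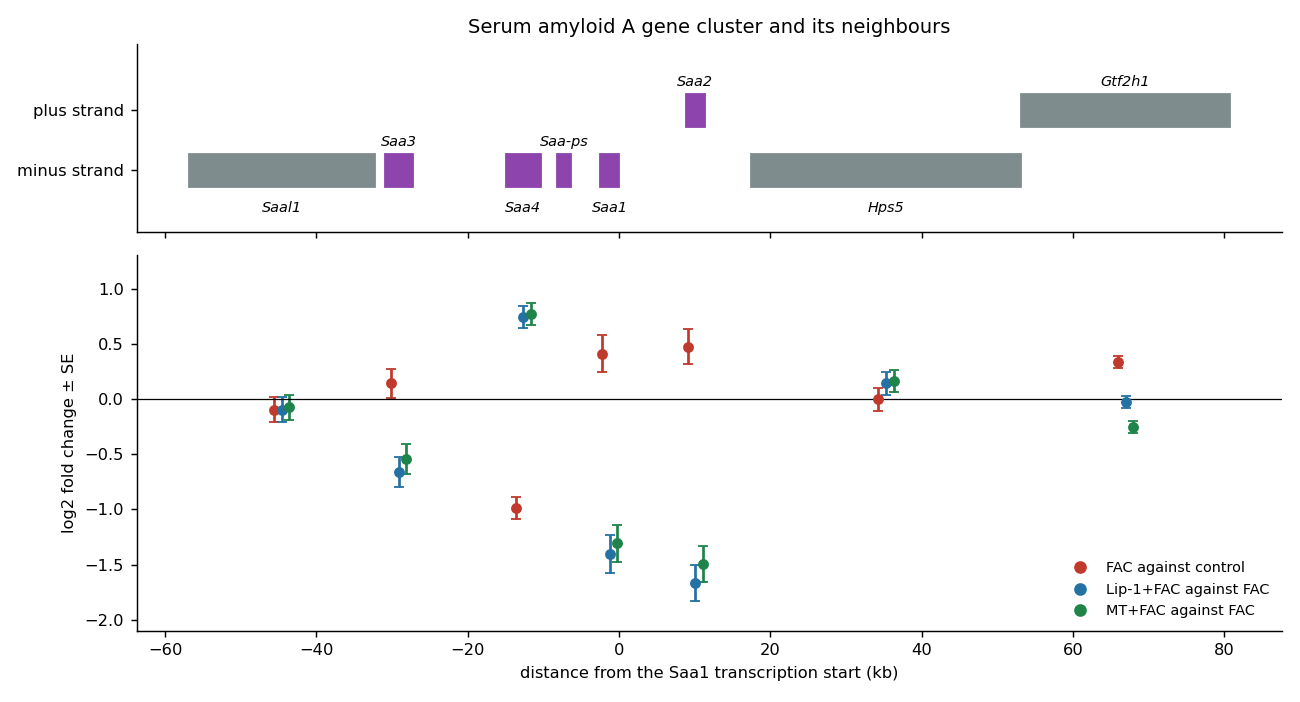
Upper panel: gene extents on each strand by distance in kb from the Saa1 transcription start. Lower panel: log2 fold changes ± SE at the gene centres for FAC against control, Lip-1+FAC against FAC and MT+FAC against FAC, with small horizontal offsets between comparisons. Saa4, at 0.74 and 0.77 with pretreatment, lay between Saa3 and Saa1, which were below 0.

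Lcn2, which binds bacterial iron carriers and is an acute phase product of hepatocytes and a granule protein of neutrophils, did not differ detectably between control and FAC. The control libraries held 3200, 2742 and 2800.3 CPM and the FAC libraries 2955, 2806 and 3021. With Lip-1+FAC the levels were 1662, 1815 and 1724 CPM and with MT+FAC 1688, 2158 and 1792. All pretreated libraries lay below all others. Lcn2 fell by 0.76 on the log2 scale with Lip-1 (SE 0.0808, edgeR adjusted p = 1.41e-06) and by 0.64 with MT (adjusted p = 1.03e-05) against FAC. FAC against control gave 0.01 with a 95% interval of -0.16 to 0.18 (adjusted p = 0.96), and the sign of this value changed in 4 alternatives. Against control, Lcn2 was lower by a log2 fold change of -0.75 with Lip-1 and -0.63 with MT (-0.39 with the offsets). All 7 neutrophil markers were without reads in the control, Lip-1+FAC and MT+FAC libraries, and their sum did not exceed 0.0192 CPM in a FAC library.

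Orm1, an acidic glycoprotein that carries small molecules in plasma, showed the smallest change of the 6 genes that fell with pretreatment. Its levels were 841, 772 and 864 CPM in control, 838, 757 and 875 with FAC, 677, 675 and 591 with Lip-1+FAC, and 608, 672 and 627 with MT+FAC. Control and FAC overlapped, and all pretreated libraries were lower. The log2 fold change against FAC was -0.35 with Lip-1 (edgeR adjusted p = 0.00064) and -0.37 with MT (adjusted p = 0.000346), and -0.23 and -0.19 with the length and GC offsets, both still called. FAC against control gave 0.00 (interval -0.15 to 0.14), a value whose sign depended on the setting. Of the related genes, Orm3 fell by 0.72 and 0.65 with Lip-1 and MT, and Orm2, which shares sequence with Orm1, gave 0.02 and -0.13, neither called.

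Crp, a pentraxin that binds phosphocholine on microbes and damaged cells, was lower in each treated group than in control. Control libraries held 425, 384 and 423 CPM, FAC libraries 340.3, 320.1 and 333, Lip-1+FAC libraries 169, 228 and 199.8, and MT+FAC libraries 194, 253 and 229.9. The ranges of control, FAC and pretreated libraries did not overlap. Crp fell by 0.31 on the log2 scale with FAC (edgeR adjusted p = 0.0301), and this call was lost when any library except control replicate 2 was left out (-0.28 to -0.33 without control replicate 1, control replicate 3 or each FAC replicate in turn, adjusted p between 0.0613 and 0.101). It was also lost with the length and GC offsets (-0.17, adjusted p = 0.178) and the length offset alone (-0.21, adjusted p = 0.123). Against FAC it fell by 0.74 with Lip-1 (adjusted p = 8.13e-05) and by 0.55 with MT (adjusted p = 0.000853). Apcs, the related pentraxin serum amyloid P, fell by 0.65 with FAC and rose by 0.54 and 0.47 with the pretreatments, all called.

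Against FAC, haptoglobin and ceruloplasmin moved opposite to Crp with both pretreatments. Hp stood at 3789, 4144 and 4398 CPM in control, 2584, 2534 and 2132 with FAC, 5904, 4756 and 4794 with Lip-1+FAC, and 5654, 4540.5 and 5359 with MT+FAC. FAC libraries were lowest, control libraries were in between and pretreated libraries were highest, with no overlap between these levels. Hp fell by 0.77 on the log2 scale with FAC (SE 0.104, edgeR adjusted p = 6.18e-05). It rose against FAC by 1.09 with Lip-1 (adjusted p = 2.1e-06) and 1.10 with MT (adjusted p = 2.52e-06), about 2.13-fold and 2.15-fold. Above control it was higher by 0.33 with Lip-1 (adjusted p = 0.0294, and 0.52 with the offsets) and 0.34 with MT (adjusted p = 0.0361). The Lip-1 call was lost without control replicate 1 (0.28), control replicate 2 (0.34) or Lip-1+FAC replicate 1 (0.22), and the MT call without control replicate 1 (0.28), control replicate 2 (0.34), MT+FAC replicate 1 (0.26) or MT+FAC replicate 3 (0.31). Neither passed with the low-count filter removed (adjusted p = 0.0886 and 0.0917), nor did the MT call with the stranded columns summed (0.0537).

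Cp, the plasma ferroxidase, held 3051, 3626 and 3312 CPM in control, 2142, 2106 and 1745 with FAC, 5001, 4589 and 4830.3 with Lip-1+FAC, and 4595, 4188 and 4713 with MT+FAC. The order was the same as for Hp and again without overlap between FAC, control and pretreated libraries. Cp fell by 0.74 with FAC (SE 0.0794, edgeR adjusted p = 1.73e-06), and rose against FAC by 1.27 ± 0.0802 with Lip-1 (adjusted p = 3.91e-09) and 1.17 ± 0.08 with MT (adjusted p = 1.9e-08). It also stood above control, by 0.53 with Lip-1 (adjusted p = 7.27e-05) and 0.43 with MT (adjusted p = 0.00107), and none of these calls was lost in any alternative run.

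Hpx, the haem carrier, changed in the same order but less. It held 11754, 12313 and 11636 CPM in control, 10930.0, 10479 and 9669 with FAC, 15587, 13995 and 14550.0 with Lip-1+FAC, and 14853, 13776 and 13744 with MT+FAC. The FAC libraries were lowest and the pretreated ones highest, without overlap with control. Hpx fell by 0.20 with FAC (edgeR adjusted p = 0.0161), a call lost when only the compared groups were fitted (-0.18, adjusted p = 0.0589) and without control replicate 2 (-0.18, 0.0615) or FAC replicate 3 (-0.15, 0.0663). It was also lost with the length and GC offsets (-0.08, adjusted p = 0.393) and the length offset alone (-0.10, 0.267). It rose against FAC by 0.51 with Lip-1 (adjusted p = 4.28e-06) and 0.45 with MT (adjusted p = 2.03e-05). Against control it was higher by 0.31 with Lip-1 (adjusted p = 0.00104) and 0.25 with MT (adjusted p = 0.00888), the latter lost without MT+FAC replicate 1 (0.20, adjusted p = 0.0637).

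Ratios within a library put these opposite movements on a scale that does not depend on library size, and no test was run on them. Each sets genes that fell with pretreatment over a gene that rose, so a parting of the groups follows from the values above. They do not remove the trend with transcript length described below. Reads of Saa1 and Saa2 per 100 reads of Hp were 25.9 ± 3.21 in control, 60.9 ± 20.2 with FAC, 9.88 ± 2.01 with Lip-1+FAC and 10.8 ± 2.28 with MT+FAC (SD, n = 3). The lowest FAC library, at 46.2, was above the highest control library, at 28.9, and the highest pretreated library, at 13.2, was below the lowest control library, at 22.5. Reads of Crp per 100 reads of Cp were 12.4 ± 1.70 in control, 16.7 ± 2.07 with FAC, 4.16 ± 0.796 with Lip-1+FAC and 5.05 ± 0.916 with MT+FAC. Reads of Lcn2 per 100 reads of Hpx were 24.5, 28.4, 11.8 and 13.4 on average in the same order of groups, and there control and FAC overlapped.

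Against control, 3 of the 10 genes were higher and 6 lower with Lip-1+FAC, beside 30.2% of all genes tested (15.4% higher and 14.8% lower). With MT+FAC the counts were also 3 and 6, beside 19.8% (9.71% and 10.1%). Saa4 was the gene not called in both. Saa1 was lower than in control by a log2 fold change of -0.99 with Lip-1 (edgeR adjusted p = 0.00164) and -0.90 with MT (adjusted p = 0.0052), and Saa2 by -1.20 and -1.02. With the length and GC offsets the MT values were -0.55 for Saa1 and -0.67 for Saa2, both still called. Crp was lower by -1.05 and -0.86 and Saa3 by -0.52 and -0.40. The Saa3 value for MT, at an adjusted p of 0.0472, was lost without control replicate 1 (-0.32), control replicate 3 (-0.37) or MT+FAC replicates 1 (-0.30), 2 (-0.47) or 3 (-0.45), and with RLE scaling (adjusted p = 0.052). With the length and GC offsets it was -0.03 (adjusted p = 0.864), and the Lip-1 value of Saa3 was -0.23 and no longer called (adjusted p = 0.0861).

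The scavengers were compared directly, since they are named for different sources of ROS. Between MT+FAC and Lip-1+FAC, 0 of the 10 genes were called (edgeR, adjusted p from 0.488 to 0.982), and DESeq2 also called 0. Of all genes tested, 1.34% were called (0.465% higher and 0.879% lower with MT), and 1795 had an unadjusted p under 0.05. This count of 182 genes was 465 with DESeq2, 477 without the filter, 312 with only the compared groups and 289 with the length offset, and 76, 77, 86 and 74 without Lip-1+FAC replicate 1 or 2 or MT+FAC replicate 2 or 3. The 95% intervals of the log2 difference, MT+FAC minus Lip-1+FAC, bound what could have been missed: -0.28 to 0.47 for Saa1, -0.18 to 0.53 for Saa2, -0.04 to 0.41 for Crp, -0.05 to 0.29 for Lcn2, -0.21 to 0.23 for Hp and -0.26 to 0.07 for Cp. Libraries of these groups overlapped for all 10 genes, beside 19.8% of all genes tested that did not overlap. For 6 of the 10 (Saa1, Saa3, Saa4, Lcn2, Hp, Orm1) the sign of the difference changed in at least 1 alternative.

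Ordered by group mean, Lip-1+FAC and MT+FAC were neighbours for all 10 genes, with none called between them. The calls below are those of the edgeR fit, and the alternatives that change them stand with each gene. From lowest to highest, Saa1, Saa2, Saa3 and Lcn2 ran Lip-1+FAC, MT+FAC, control, FAC, where control against FAC was called for Saa2, a call lost in 8 of 18 alternatives, and not for Saa1, which 5 of 18 called. Crp ran Lip-1+FAC, MT+FAC, FAC, control, and Orm1 ran MT+FAC, Lip-1+FAC, FAC, control, where the last neighbours were called apart for Crp and not for Orm1. Hp ran FAC, control, Lip-1+FAC, MT+FAC, and Hpx and Cp ran FAC, control, MT+FAC, Lip-1+FAC, with FAC, control and the pretreated pair apart. Saa4 ran FAC, Lip-1+FAC, MT+FAC, control, where only the step from FAC to Lip-1+FAC passed the test.

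Transcript length moved with these results. Saa3 (555 bases), Saa2 (606), Saa1 (609), Orm1 (775) and Lcn2 (915) have short transcripts and fell with pretreatment, as did Crp (1695 bases). Hp (1345), Hpx (1499), Saa4 (2094) and Cp (4029) are mostly longer and rose. Over all genes tested, the median log2 fold change for Lip-1+FAC against FAC was -0.53 for transcripts of up to 600 bases, -0.25 above that up to 1000 bases and between -0.09 and 0.06 for longer ones. For MT+FAC against FAC it was -0.65, -0.29 and between -0.08 and 0.07. The medians for FAC against control were 0.20 up to 600 bases and between -0.07 and 0.10 above.

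With gene-wise offsets for transcript length and GC content, added after this trend was seen, the pretreatment differences kept their direction and their calls in all 10 genes. Saa1 then gave -1.18 with Lip-1 and -1.02 with MT, and Saa2 gave -1.42 and -1.20. Lcn2 gave -0.59 and -0.48, and Cp 1.12 and 1.09. The values of Saa3 and Orm1, given with those genes, moved by more than 1.5 times. With the same offsets FAC against control called Saa1 (0.47, edgeR adjusted p = 0.00179) and no longer Hpx or Crp. Against control, Orm1 was then -0.15 with Lip-1 and no longer called with MT (-0.11), from -0.35 and -0.38. With the length offset alone, Orm1 was not called with Lip-1 against control either (-0.10, edgeR adjusted p = 0.205).

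**Figure D4:**
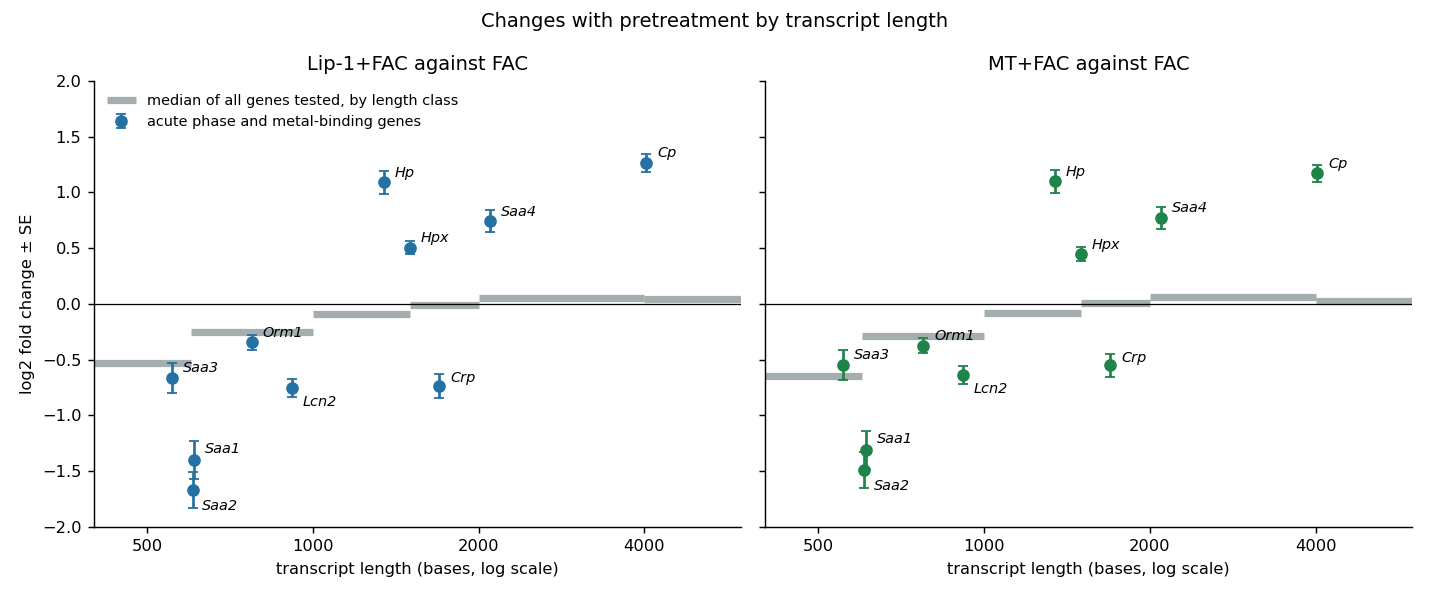
Log2 fold changes ± SE of the 10 genes against the length of their principal transcript (log axis), for Lip-1+FAC against FAC and MT+FAC against FAC. Grey bars are the medians of all genes tested in each length class, from -0.53 and -0.65 in the shortest class upward, with the first and last class cut at the edge of the axis. Saa1 and Saa2 lay below the median of their class and Hp, Hpx, Saa4 and Cp above theirs, whereas Saa3 and Orm1 lay close to theirs.

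Beyond these 10 genes, 40 other positive acute phase genes were examined, from a list written with earlier results of these data known. With FAC 8 rose, 14 fell and 18 did not pass (median -0.10), beside 36.6% called of all genes tested. Against FAC, 11 rose and 17 fell with Lip-1 (median -0.25), beside 39.9%, and 9 rose and 16 fell with MT (median -0.29), beside 40.9%. The list therefore held rises and falls side by side, as the 10 genes did.
Steap4, a metalloreductase of iron and copper, stood at 49.8 to 60.5 CPM in control and 14.0 to 15.3 CPM with FAC, and at 44.8 to 62.9 CPM with either pretreatment. Its log2 fold change was -1.90 with FAC (edgeR adjusted p = 1.76e-09), 1.77 with Lip-1 and 1.93 with MT. Mt1, a metallothionein that binds zinc and copper, went the other way, with 0.78, -1.42 and -1.40, and so did Cd14, a co-receptor for lipopolysaccharide, with 1.05, -1.37 and -1.16, all called. Vnn1, a pantetheinase, fell by 0.85 with FAC (edgeR adjusted p = 5.28e-05) and rose by 1.47 with Lip-1 and 1.44 with MT. Il1rn, the interleukin 1 receptor antagonist, stood at 0.713 to 1.34 CPM in control and 2.18 to 2.37 CPM with FAC, where it rose by 1.22 (adjusted p = 0.00437), and gave 0.31 and -0.34 with the pretreatments, neither called. Hamp, which encodes the iron hormone hepcidin, fell by 0.82 with FAC (adjusted p = 0.0184), fell by 2.12 with Lip-1 and fell by 1.75 with MT against FAC, from 30.9 to 55.9 CPM in control to 5.33 to 7.90 CPM in pretreated libraries. The fibrinogen genes Fga and Fgg fell with both pretreatments, by 0.31 to 0.39. Fgb fell by 0.14 with Lip-1 (-0.285 with the offsets) and gave -0.05 with MT (-0.14 and called with the offsets). Itih4, Lrg1 and Orm2 passed in none of the 3 comparisons, although Itih4 was called for Lip-1 with the length and GC offsets (-0.12, edgeR adjusted p = 0.047).

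Negative acute phase genes are those whose plasma products fall in inflammation. Of 18 tested, 2 rose and 5 fell with FAC, 6 rose and 9 fell with Lip-1, and 6 rose and 10 fell with MT, beside the same shares of all genes. With the length and GC offsets 5 rose and 3 fell with FAC, beside 5083 genes called in all. The counts were then 6 and 9 with each pretreatment, beside 5380 genes called with Lip-1 and 5619 with MT. Alb (albumin) gave 0.04 with FAC and fell by 0.24 and 0.21 with Lip-1 and MT, and Ttr (transthyretin) gave 0.04 (0.15 and called with the offsets, edgeR adjusted p = 0.0376) and fell by 0.47 and 0.49. Trf (transferrin) fell by 0.18 with FAC, a call lost with the length and GC offsets (-0.09, edgeR adjusted p = 0.22), and rose by 0.33 and 0.41. Apof, an apolipoprotein, fell by 0.59 with FAC (adjusted p = 1.61e-07) and rose by 0.52 with either pretreatment. The hepatocyte marker Cyp2e1, a cytochrome that generates ROS, rose by 0.42 with FAC and fell by 1.66 and 1.49.

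Among 37 tested genes of the interleukin 6, interleukin 1 and tumour necrosis factor receptors and their signal chain, 10 rose and 4 fell with FAC, where 36.6% of all genes tested were called. With Lip-1 against FAC 6 rose and 13 fell, beside 39.9% of all genes, and with MT 7 rose and 10 fell, beside 40.9%. The largest rises with FAC were in Relb and Nfkb1, NF-kB subunits, and Ly96, a partner of the lipopolysaccharide receptor. Relb rose by 1.14 (edgeR adjusted p = 0.000128) and fell by 0.59 with Lip-1 and 0.51 with MT, both lost with the length and GC offsets (-0.37 in each, adjusted p = 0.0638 and 0.0627). Nfkb1 rose by 0.79 with FAC, fell by 0.39 with Lip-1 and gave -0.31 with MT, which was called with the offsets (-0.39). Ly96 rose by 0.76 and fell by 0.43 and 0.81. Tlr2, a receptor for bacterial lipoproteins, fell by 0.78 with FAC (adjusted p = 0.012) and rose by 2.21 with Lip-1 and 2.08 with MT. Il1r1, the signalling receptor of interleukin 1, fell by 1.20 with FAC (edgeR adjusted p = 6.36e-07) and rose by 1.06 with Lip-1 and 1.15 with MT. Il6st, the shared signalling receptor gp130, rose by 0.46 and fell by 0.17 and 0.24, and Nfkbiz, an NF-kB cofactor, rose by 0.35 and fell by 0.51 and 0.36. Il6ra and Socs3, a feedback inhibitor induced by STAT3, passed in none of these comparisons, although the offsets called Il6ra with FAC (0.29, adjusted p = 0.0155) and MT (-0.25, adjusted p = 0.0309). Stat3 itself rose by 0.19 with FAC. It held 470 to 493 CPM with Lip-1+FAC and 396 to 425 with MT+FAC, a difference of -0.26 with the offsets (edgeR adjusted p = 0.00819). Between MT+FAC and Lip-1+FAC 1 of the 37 genes was called, lower with MT, beside 1.34% of all genes tested. Cebpb fell by 0.91 with Lip-1 and 0.92 with MT. With the length and GC offsets it gave -0.48 with Lip-1 (edgeR adjusted p = 0.0669), not called, and -0.56 with MT (adjusted p = 0.0355). Cebpa and Cebpd were not called, apart from Cebpa with Lip-1 under the offsets (0.36, adjusted p = 0.0114). Of 10 cytokine genes, 2 (Il18 and Lif) had enough reads to be tested. Of these, 1 fell with FAC, 0 were called with Lip-1 and 1 rose with MT, beside the same shares of all genes. Il18 held 1.93 to 2.74 CPM in control and 1.13 to 1.78 with FAC. With the offsets it gave -0.63 with FAC (edgeR adjusted p = 0.0743) and 0.87 with MT against FAC (adjusted p = 0.0138).

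Receptors and partners of the 10 proteins differed among themselves, with 3 of 15 tested rising and 7 falling with FAC, 3 and 3 with Lip-1 and 3 and 4 with MT, beside 36.6%, 39.9% and 40.9% called of all genes tested. Hmox1, which degrades the haem that Hpx delivers, rose by 3.10 with FAC (edgeR adjusted p = 7.2e-12) and fell by 0.79 with Lip-1 and 1.02 with MT. Slc40a1, the iron exporter ferroportin that works with Cp, rose by 1.12 with FAC and by a further 0.18 with Lip-1, the latter lost with the offsets (0.02, adjusted p = 0.75), and gave 0.01 with MT. Lrp1, a hepatocyte receptor for the haem-hemopexin complex, rose by 0.43 with FAC, a call lost with the length and GC offsets (-0.07, adjusted p = 0.377). Atp7b, which loads copper onto Cp, fell by 0.43 with FAC and gave 0.25 and 0.28 with the pretreatments, neither called (0.27 and 0.28 and called with the offsets). Tfrc, the transferrin receptor, fell by 1.42 with FAC (edgeR adjusted p = 7.63e-08) and by a further 0.48 with MT, and gave -0.28 with Lip-1, which was called with the offsets (-0.41). Cd163, the macrophage receptor for haptoglobin bound to haemoglobin, was not called in any of these comparisons.

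Genes with the nearest pattern were sought among 10661 genes by the root mean square difference of centred log2 CPM over the 12 libraries. Within the 10, Saa1 and Saa2 were nearest to each other (0.113), as were Hp and Cp (0.114), Lcn2 and Crp (0.153) and Saa3 and Orm1 (0.156). Saa4 and Hpx had no such partner, with Hp nearest to them at 0.272 and 0.277. Among the 10661 genes, which leave out these 10, Tff3 was nearest to Saa1 (0.0971) and to Saa2 (0.122). Hacd1 was nearest to Saa3 (0.0806), Alg6 to Saa4 (0.0938) and C8g to Lcn2 (0.075). Slc17a2 was nearest to Hp (0.09), Aplp2 to Hpx (0.0451), Pros1 to Cp (0.0808), Rpl9 to Orm1 (0.0298) and Acmsd to Crp (0.105). A small difference can also reflect a flat profile, as for Hpx and Orm1, whose own spread was 0.21 and 0.197 against 0.71 for Saa2.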

How the data were processed

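Messenger RNA of 12 libraries of mouse primary hepatocytes (4 groups of 3) was sequenced after SMART-Seq v4 amplification and Nextera XT library preparation, per the labels' protocols, with no molecular identifiers mentioned. The authors deposited raw counts of reads per gene, in the 4-column layout of STAR, which with the build GRCm38 is named in the submitters' processing notes. The version and annotation are not given in the sources used here. The unstranded count column was used. Lines that name no gene stayed out of library sizes. Names and lengths came from GENCODE M21, which matched 55227 of 55487 identifiers, and the other 260 held 0.00207% of counts.

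Counts were filtered with filterByExpr (13535 genes kept), scaled by TMM and fitted with edgeR 4.0.16 in R 4.3.3 over all 12 libraries with 4 group means. Two-sided p-values of the quasi-likelihood test were adjusted by Benjamini-Hochberg over 13535 genes and called at 0.05. Levels are CPM after TMM scaling, and levels between genes are CPM per kb of the principal transcript. The fit was tested on simulated data. Alternatives used RLE or upper-quartile scaling, scaling without these genes, other filters, DESeq2 1.42.0, fewer groups, the summed stranded columns, a replicate block, Saa1 and Saa2 summed, each library left out, and length and GC offsets. The 10 genes and all lists were chosen with earlier results of these data known. Besides them the text could name preset genes of the lists, the 3 largest called rises and falls of a list, and the nearest genes by pattern. Markers of other cell types, Il18 and Lif were named after their values were seen. The replicate numbers did not pair the libraries.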

Additional observations from a re-analysis of the deposited data

How the results depend on the processing

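Over 1032 alternative values of single genes, 943 kept their direction and side of the threshold, 46 lost a call, 9 gained one and 34 changed sign. All calls of the 10 genes for Lip-1+FAC against FAC and MT+FAC against FAC remained in every alternative run, except Saa3 with MT under the length offset (-0.19). With 1 library left out, the number of the 10 genes called with FAC ranged from 3 to 6. With a replicate block it was 5, Saa2 being lost (0.47), MT+FAC against control lost Saa3 (-0.40) and Lip-1+FAC against control gained Saa4 (-0.24). The numbers did not pair the libraries: same-number correlations ran from -0.249 to 0.164, and 7 of 18 were best with their own number. Between MT+FAC and Lip-1+FAC 182 genes were called, and 477 without the filter, 465 with DESeq2, 312 with only the compared groups, 289 with the length offset and 74 to 156 without a library. Upper-quartile scaling moved the share higher with MT from 34.6% to 46.7%. The offsets for length, and for length and GC, were chosen after seeing the data. The causes were not tested. Values that changed sign were near 0 and none was called. For FAC against control, Orm1 gave 0.0146 with RLE and with DESeq2, 0.00835 without the filter, 0.0128 with the compared groups, 0.00426 without the 10 genes in the scaling, 0.00213 with the filter at 5 CPM, 0.00451 with stranded columns summed, 0.0797 and 0.0546 with the offsets, and -0.0506 to 0.0546 without a library. Lcn2 gave -0.0104 with upper-quartile scaling and -0.0359 to 0.0796 without a library. Between the pretreatments, Hp gave -0.00569 without the 10 genes in the scaling, -0.0106 with stranded columns summed, -0.0430 and -0.00206 with the offsets, and -0.0531 to 0.116 without a library. Orm1 gave 0.0337 and 0.0112 with the offsets and -0.0903 to 0.0081 without a library. Without a library, Saa1 ranged from -0.0185 to 0.220, Saa3 from -0.0137 to 0.230, Saa4 from -0.0579 to 0.0878 and Lcn2 from -0.00685 to 0.193. All 10 genes had over 14 CPM in every library, and precision is limited by 3 libraries per group.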
